A study of Mus musculus with 31 samples.

Results

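Heat shock genes encode the molecular chaperones of the cell and the transcription factors that switch them on, and 10 of them were followed here through single mouse 2-cell embryos. They were Hspa1a, Hspa1b, Hspa2, Hspa4, Hspa5 and Hspa8 of the Hsp70 superfamily, Hsp90aa1 and Hsp90ab1 of the cytosolic Hsp90 family, and the heat shock factors Hsf1 and Hsf2. They were taken by name from the 20544 genes of the count table, and all 10 were found in it. No level or test result entered the choice, but earlier results of these data were known when it was made.

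Hsp70 proteins bind exposed hydrophobic stretches of unfolded proteins and release them in cycles driven by ATP, and Hsp90 takes over many of the same clients at a later stage of folding. Heat shock factors bind repeats of the pentamer NGAAN, the heat shock element, in the promoters of stress-inducible genes. In the mouse, Hspa1a and Hspa1b are known as some of the earliest genes transcribed from the zygotic genome, with no heat applied, and Hsf1 is known as a factor that the oocyte supplies to the embryo.

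The embryos came from in vitro fertilization of oocytes of superovulated CD1 females, aged 8 to 10 weeks, with sperm of C57BL/6J males aged 12 to 14 weeks, and the labels give the genotype as WT. In the control group (16 embryos) the sperm were kept in complete medium, IVF-TYH +/+. In the SER group (15 embryos), for sperm energy restriction and recovery, sperm from the other cauda epididymis were held in IVF-TYH -/-, medium without glucose and pyruvate, until motility was lost after 15 to 45 min. Both were then given complete medium and used for insemination, and embryos of either group were collected at 32 h post insemination (HPI). Sperm alone were treated, and oocytes were handled and embryos cultured by the same protocol in both groups. The labels do not tie an embryo to a male, a dish or a collection batch, so p-values measure the spread between single embryos, some of which may share parents.

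Library totals ranged from 532945 to 2085222 counts in control and from 642321 to 3088396 in SER embryos, and no pair of libraries held identical values. Of 17 cumulus cell markers, 2 passed the filter on low counts and 11 had a median of 0, with summed levels of 63.8 to 1804 CPM (counts scaled to a library total of 1000000) in control and 42.0 to 322 in SER embryos. Of 11 sperm markers 1 passed, with 8 at a median of 0, and of 8 blood cell markers none passed, all 4 globin genes being at 0 in every embryo. The part of these cells in the results was not tested.

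A pair of embryos stood apart from the rest, control replicate 4 and SER replicate 15. The two-cell burst score, the mean log2 CPM of 19 tested genes of a list of 25 that are transcribed in a transient wave at the 2-cell stage (the Zscan4 cluster, Zfp352 and others), was 1.83 and 2.58 in them and 3.98 to 6.46 in the other 29. The maternal score, the same mean over 20 tested genes of a list of 23 oocyte genes such as Gdf9 and Bmp15, was 8.51 and 8.64 against 6.12 to 8.08. Results that could rest on them are given with and without them.

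Hspa1a and Hspa1b are near-identical copies that lie side by side on chromosome 17 and have 1 exon each. In GRCm38, Hspa1a spans chr17:34969190-34972156 and Hspa1b chr17:34956436-34959238, both on the minus strand. The 250 bases upstream of each start were read from RefSeq promoter windows (GRCm38.p6) and are shown because these genes share their upstream region almost base for base. The runs cover chr17:34972157-34972406 and chr17:34959239-34959488 on the minus strand, 5′ to 3′, and the capitals mark the match to GAANNTTC, a pair of inverted heat shock units.
Hspa1a: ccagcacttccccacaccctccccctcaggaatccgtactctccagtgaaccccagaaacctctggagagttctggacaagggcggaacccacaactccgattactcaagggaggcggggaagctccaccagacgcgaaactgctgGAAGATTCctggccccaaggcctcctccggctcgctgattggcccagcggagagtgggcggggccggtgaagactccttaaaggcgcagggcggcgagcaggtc
Hspa1b: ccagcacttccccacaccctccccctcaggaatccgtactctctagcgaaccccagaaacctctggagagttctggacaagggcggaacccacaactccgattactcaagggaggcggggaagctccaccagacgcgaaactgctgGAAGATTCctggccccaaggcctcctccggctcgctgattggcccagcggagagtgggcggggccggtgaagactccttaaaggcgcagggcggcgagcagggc

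The copies shared 247 of the 250 bases (98.8%), and the 3 differences, from Hspa1a to Hspa1b and counted from 1 at the 5′ end of the window, were C44T, T47C and T249G. None of them touched the GAANNTTC match, which lay 104 to 97 bases before the start in both copies. An inverted CCAAT box followed at 67 to 63 bases before the start. Of 32851 RefSeq promoter windows of the same length, searched on both strands, 6.69% held GAANNTTC, 7.17% held TTCNNGAA and 33.9% held CCAAT. The windows of Hspa2, Hspa4, Hspa5 and Hsf2 held neither GAANNTTC nor TTCNNGAA, which says only that these letters were not within those 250 bases. Longer elements of 3 inverted units in a row, searched in each of their 2 phases, stood in 0.466% of windows each and in none of these 6. Only exact matches were searched, so elements with a mismatched or gapped unit were not looked for. Hspa8, Hsp90aa1, Hsp90ab1 and Hsf1 had no entry.

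Because the reads were short, near-identical sequence decides how well some of these genes can be counted. Of all 45-base windows along the Hspa1a transcript, 67.3% were also found in transcripts of other genes, 60.1% in Hspa1b, and for Hspa1b the share was 63.6%, all of it with Hspa1a. For Hspa8 it was 76.0%, mostly with the processed copy Gm15459, and for Hsp90aa1 59.5%, mostly with Gm12346. Hsp90ab1 shared 6.10%, and Hspa2, Hspa4, Hspa5, Hsf1 and Hsf2 shared none at this length. Uniquely mapped 5′ reads were kept upstream, and no such rule is given for internal reads. Counts of Hspa1a, Hspa1b, Hspa8 and Hsp90aa1 may therefore miss a part of their transcripts or hold reads of a near-identical copy. Which of these holds was not tested. Hspa1a also overlaps Gm20481, on the opposite strand, over 564 of its 2967 exon bases, and the strand setting of the counting is not given in the sources used here.

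By deposited counts per length, Hsp90ab1 stood highest and Hspa1a, Hspa1b and Hsf2 lowest. In CPM per kilobase of exon, averaged over 31 embryos, the levels were 281 ± 118 (SD) for Hsp90ab1, 91.7 ± 47.1 for Hspa5, 64.8 ± 29.2 for Hsp90aa1, 40.9 ± 17.9 for Hsf1 and 33.6 ± 16.7 for Hspa8. They were 27.7 ± 24.4 for Hspa2, 22.4 ± 12.6 for Hspa4, 5.52 ± 3.89 for Hspa1a, 0.967 ± 1.27 for Hspa1b and 0.363 ± 0.463 for Hsf2. Neighbours in this order differed beyond their spread, meaning that the mean log2 difference within embryos exceeded its SD, at 3 steps. Hsp90ab1 was above Hspa5 in 30 of 31 embryos, Hspa4 above Hspa1a in 30 and Hspa1a above Hspa1b in 28. At the other 6 steps the neighbours did not differ beyond their spread, and Hspa2 and Hspa4 changed places when medians were ordered. Without control replicate 4 and SER replicate 15 the order of the means and the 3 steps were the same. The order is that of the reads as counted. With 59.5 to 76.0% of their windows shared, Hsp90aa1, Hspa8, Hspa1a and Hspa1b may stand higher or lower in transcript level. This touches the step from Hspa4, with 0% shared, to Hspa1a. The step from Hspa1a to Hspa1b is touched too, because most of their windows are common to both copies. Of the copies, only Hspa1a overlaps Gm20481.

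**Figure D1:**
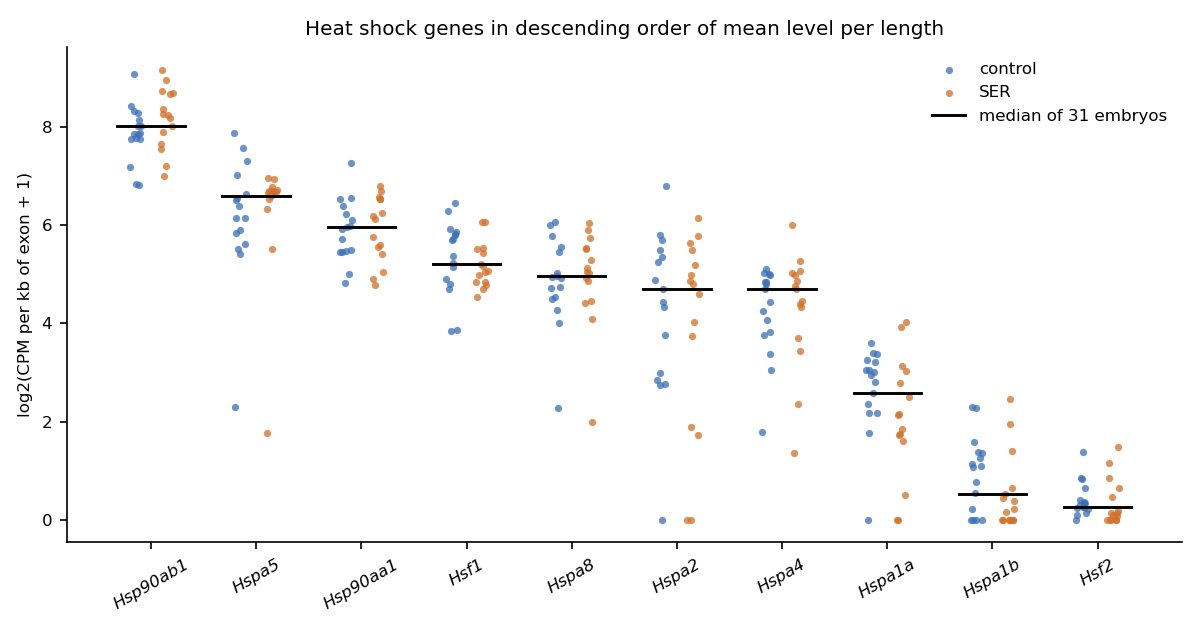
Each point is 1 embryo, with the gene on the x axis in descending order of its mean level and log2(CPM per kilobase of exon + 1) on the y axis, and black lines mark the median of 31 embryos. Hsp90ab1 stands at the top (mean 281 CPM per kilobase), and a gap separates Hspa4 (22.4) from Hspa1a (5.52), Hspa1b (0.967) and Hsf2 (0.363).

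The stress-inducible Hsp70 copies were low in most embryos. Hspa1a ran from 0 to 32.9 CPM in control embryos, with a median of 20.4, and from 0 to 45.3 CPM in SER embryos, with a median of 10.0. The groups overlapped over nearly the whole range, although 4 of 15 SER embryos lay above the control median. Hspa1b ran from 0 to 10.96 CPM (median 3.14) in control and from 0 to 12.5 CPM (median 0.463) in SER embryos. It was at 0 in 4 control and 6 SER embryos, and a count of 0 allowed up to 4.67 CPM in the shallowest of these libraries. Summed over both copies, the highest levels were 57.8 CPM in SER replicate 1, 50.2 CPM in SER replicate 3 and 43.8 CPM in control replicate 6. Neither copy had a count in control replicate 4, SER replicate 11 and SER replicate 15, and SER replicate 9 had 1 count. SER embryos therefore held both the highest values and, with 1 control embryo, the lowest.

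Across all embryos 661 counts fell on Hspa1a and 102 on Hspa1b, so that Hspa1b took 13.4% of them (exact binomial 95% confidence interval 11.03 to 15.99%, which covers counting error only). The share was 15.1% (11.5 to 19.2%) in control and 11.9% (8.95 to 15.5%) in SER embryos, and these intervals overlapped. In 0 of 31 embryos did Hspa1b exceed Hspa1a. These are shares of reads as counted: most read windows are common to both copies, and only Hspa1a overlaps Gm20481. The share of each copy in the transcripts was not tested.

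Among the Hsp70 genes expressed without stress, Hspa8 and Hspa4 had similar medians in both groups and Hspa2 varied most. Hspa8, the constitutive cytosolic Hsc70 (chr9:40800984-40810087, plus strand), ranged from 16.6 to 285 CPM in control embryos (median 127) and from 12.9 to 278 CPM in SER embryos (median 137). Hspa4, an Hsp110-type protein that exchanges the nucleotide of Hsp70 (chr11:53259814-53300457, minus strand), ranged from 13.6 to 185 CPM (median 126) and from 8.57 to 349 CPM (median 138). In both genes the lowest embryo of each group was the one that stood apart. Hspa2, an Hsp70 best known from spermatogenesis (chr12:76404176-76406938, plus strand), ranged from 0 to 290 CPM (median 60.3) in control and from 0 to 184 CPM (median 70.9) in SER embryos, with no count in 1 control and 2 SER embryos.

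Hspa5 encodes BiP, the Hsp70 of the endoplasmic reticulum (chr2:34771970-34777547, plus strand). It ranged from 16.6 to 993 CPM in control embryos (median 322) and from 10.1 to 520 CPM in SER embryos (median 427). The SER embryos lay within the control range apart from their lowest, and 13 of 15 were above the control median although the means were 387 ± 252 (SD, n = 16) and 388 ± 130 CPM (n = 15).

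The cytosolic Hsp90 genes were present in every embryo. Hsp90ab1, the constitutive beta form (chr17:45567775-45573271, minus strand), ranged from 336 to 1620 CPM in control embryos (median 695) and from 380 to 1722 CPM in SER embryos (median 900). Hsp90aa1, the inducible alpha form (chr12:110690605-110702728, minus strand), ranged from 107 to 604 CPM (median 237) and from 105 to 434 CPM (median 272). For both genes the groups overlapped, and 11 of 15 SER embryos lay above the control median for Hsp90ab1 and 8 of 15 for Hsp90aa1.

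The heat shock factors were far apart in level. Hsf1, the main activator of the stress response (chr15:76477422-76501913, plus strand), ranged from 95.2 to 615 CPM in control embryos (median 323) and from 157 to 469 CPM in SER embryos (median 229), with 3 of 15 SER embryos above the control median. Hsf2, which acts mostly in development (chr10:57486385-57513135, plus strand), ranged from 0 to 15.4 CPM (median 2.32) and from 0 to 17.1 CPM (median 1.01), and had no count in 1 control and 5 SER embryos. Hsf1 was thus among the genes present throughout, whereas Hsf2 was close to the limit of detection.

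**Figure D2:**
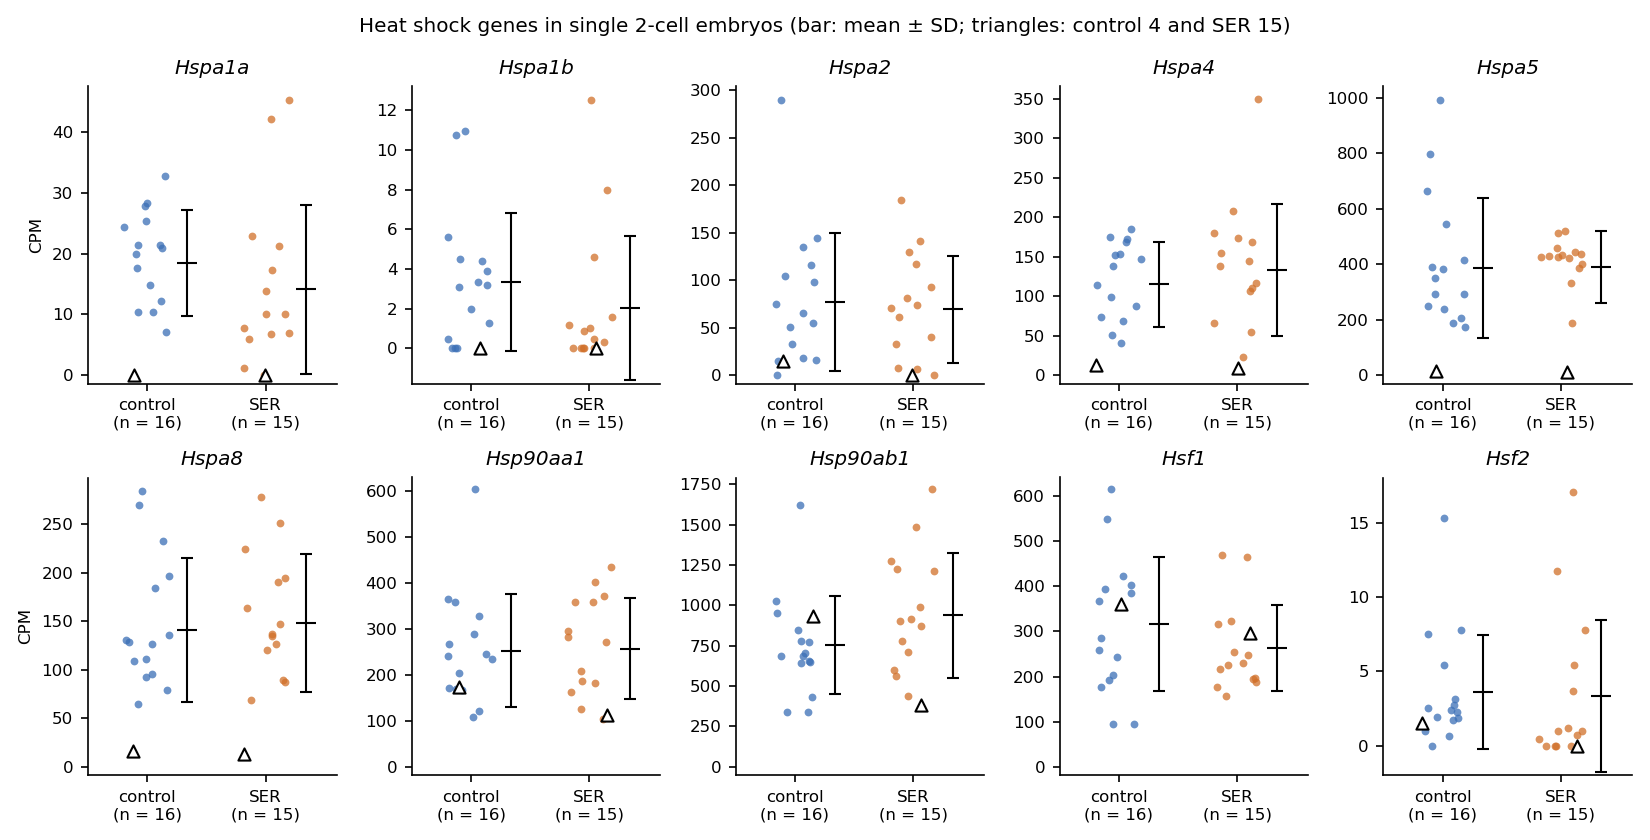
Each panel plots 1 heat shock gene, with the CPM of each control (n = 16) and SER embryo (n = 15) as points on a linear y axis of its own, the mean ± SD as a black bar, and control replicate 4 and SER replicate 15 as triangles. The groups overlap in all 10 panels, and the triangles lie at or near the bottom for Hspa8 (16.6 and 12.9 CPM), Hspa5 (16.6 and 10.1 CPM) and Hspa4 (13.6 and 8.57 CPM) but within the range of the others for Hsp90ab1 (932 and 380 CPM) and Hsf1 (361 and 297 CPM).

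Comparing the embryo groups asks whether energy restriction of the sperm was followed by a different transcript level in the embryo. None of the 10 heat shock genes passed the threshold in edgeR's quasi-likelihood test (adjusted p under 0.1 over all genes tested), and neither did any of the 8571 tested genes, so 0% were called. At an unadjusted p under 0.05 there were 491 genes, none of them a heat shock gene, and the smallest adjusted p was 0.178. With DESeq2 49 genes (0.572%) were called, 8 higher and 41 lower in SER, and again no heat shock gene was. Hspa1b and Hsf2 were too low for the filter and were read from the fit of all 17803 genes with a count, in which 2.83% were called.

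Log2 fold changes of SER over control ran from -0.67 to 0.29. The largest in size was that of Hspa1b, -0.67 ± 0.83 (SE, adjusted p = 0.833 by edgeR), followed by Hspa1a with -0.38 ± 0.51 (adjusted p = 0.968). Taken as 1 gene, Hspa1a and Hspa1b gave mean levels of 21.8 ± 11.4 CPM in control and 16.2 ± 17.3 CPM in SER embryos (permutation p = 0.292, 100000 resamples, 2-sided). The difference was smaller than the SD within either group. Removing SER replicate 1, the embryo with the most Hspa1 counts, moved Hspa1b to -1.32 and Hspa1a to -0.62. At the other end of the range with 1 embryo left out, Hspa1b was at -0.38 without control replicate 3 and Hspa1a at -0.28 without SER replicate 15. Neither gene was called with any embryo left out. Under 10 other settings Hspa1a ran from -1.08 to -0.34, with a smallest adjusted p of 0.162 over the methods used. Hspa1b ran from -1.72 to -0.63 under 8 settings, with a smallest adjusted p of 0.3565. Neither changed direction in any of these fits.

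Hsp90ab1 and Hsf1 had the lowest p-values of the 10, in opposite directions. Hsp90ab1 had a mean of 754 ± 305 CPM in control and 938 ± 386 CPM in SER embryos (permutation p = 0.152), with a log2 fold change of 0.29 ± 0.22 (adjusted p = 0.935 by edgeR). Without control replicate 4 and SER replicate 15 the means were 742 ± 312 and 978 ± 368 CPM (permutation p = 0.0719). Hsf1 had a mean of 316 ± 149 CPM in control and 264 ± 95.8 CPM in SER embryos (permutation p = 0.265) and a log2 fold change of -0.27 ± 0.23 (adjusted p = 0.936 by edgeR). With limma voom and sample quality weights in place of edgeR, both were called, Hsp90ab1 with 0.46 (adjusted p = 0.0898) and Hsf1 with -0.69 (adjusted p = 0.0369), in a fit that called 848 genes (9.89%) in all. Without the filter on low counts the same method called neither (Hsp90ab1 0.40, adjusted p = 0.239; Hsf1 -0.44, adjusted p = 0.23). With library size as a covariate in edgeR, the log2 fold change of Hsf1 was -0.03 (adjusted p = 0.992).

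The other 6 genes had log2 fold changes between -0.14 and 0.20, beside a median of 0.02 over all genes tested. They were 0.20 ± 0.34 for Hspa4, 0.02 ± 0.31 for Hspa8, 0.01 ± 0.24 for Hsp90aa1 and -0.01 ± 0.34 for Hspa5, with adjusted p of 0.974 or more by edgeR. Hspa2 gave -0.14 ± 0.58 and Hsf2 -0.10 ± 0.78 (adjusted p = 0.987 and 0.983 by edgeR). The direction of Hspa2, Hspa4, Hspa5, Hspa8, Hsp90aa1 and Hsf2 turned when single embryos were left out, so none is given.

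**Figure D3:**
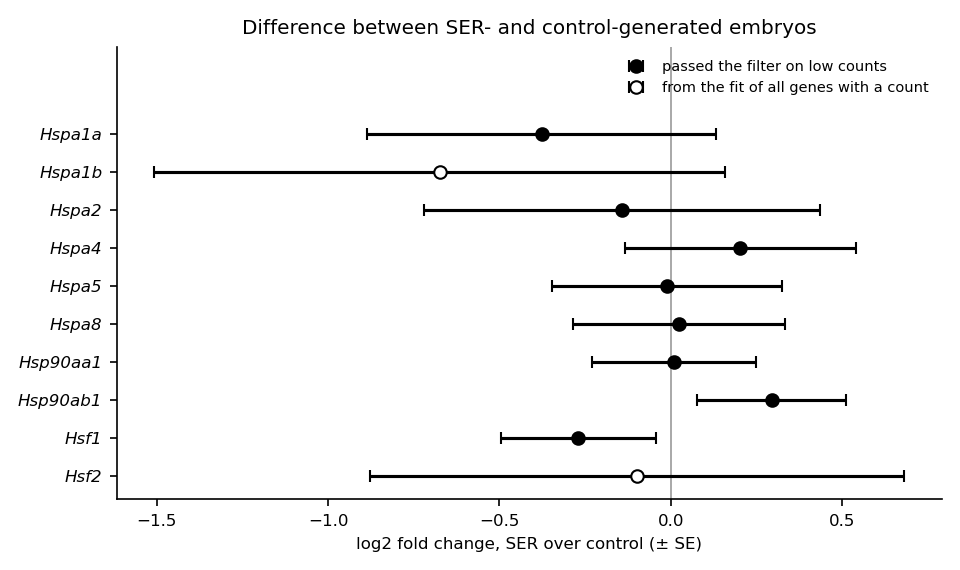
Points give the fitted log2 fold change of SER over control for each heat shock gene on the x axis and bars its SE, with open points for Hspa1b and Hsf2, whose counts were below the filter. The values run from -0.67 (Hspa1b) to 0.29 (Hsp90ab1), and none was called.

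In control replicate 4 and SER replicate 15 some heat shock genes were nearly missing from both embryos, whereas others lay within the range of the other 29. Hspa5 was at 16.6 and 10.1 CPM, 3.98% and 2.43% of the median of the other 29 embryos, whose lowest value was 175 CPM. Hspa4 was at 9.83% and 6.20% of that median and Hspa8 at 12.3% and 9.49%, in each case below every other embryo. Hspa1a and Hspa1b had no count in either. Counts of the deeper SER replicate 15 were 26 for Hspa5, 22 for Hspa4 and 33 for Hspa8 in a library of 2567720 counts, above the SER median of 1375557.

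Hsp90ab1 and Hsf1 behaved otherwise in the same embryos. Hsp90ab1 stood at 932 and 380 CPM, ranks 22 and 3 from the lowest of 31, and Hsp90aa1 at 174 and 113 CPM, ranks 10 and 3. These were 120% and 49.1% of the median of the others for Hsp90ab1, and 71.0% and 46.2% for Hsp90aa1. Hsf1 stood at 361 and 297 CPM, 145% and 120% of the median of the others. Hspa2 was at 15.1 and 0 CPM, but 1 control and 1 SER embryo among the other 29 also had no Hspa2 count. These are values of 2 embryos chosen for their scores, so no test was made.

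The heat shock genes also differed from each other in how much their levels varied between embryos. The biological coefficient of variation, edgeR's measure of spread beyond counting, was 1.08 for Hspa2, above that of 94.0% of tested genes, and 0.873 for Hspa1a, above 78.2%. It was 0.642 for Hspa5, 0.640 for Hspa4 and 0.592 for Hspa8, beside a median of 0.679. It was lowest for Hsp90aa1 (0.472), Hsf1 (0.447) and Hsp90ab1 (0.435), the last above 8.19% of tested genes. Hspa1b and Hsf2, in the fit of all genes with a count, had the highest values of the 10, 1.46 and 1.32. All these values include control replicate 4 and SER replicate 15. Without them the SD of CPM as a percent of the mean went from 51.3% to 43.1% for Hspa5. It went from 56.0% to 49.1% for Hspa4, from 49.5% to 42.2% for Hspa8 and, upwards, from 43.6% to 45.3% for Hsf1.

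Whether SER-generated embryos were more or less alike was tested as the mean absolute deviation of log2 CPM from the group median. No gene passed over the whole table (0% of 8571 called by a permutation test with Benjamini-Hochberg adjustment), and the 8 tested heat shock genes had an adjusted p of 1.00. Hspa1a deviated by 0.64 in control and 1.13 in SER embryos (permutation p = 0.165), and Hsf1 by 0.60 and 0.36 (permutation p = 0.0846). Without control replicate 4 and SER replicate 15, Hspa1a gave 0.43 and 1.01 (permutation p = 0.026) and Hspa5 0.56 and 0.22 (permutation p = 0.0269). SER embryos were then more spread for Hspa1a and less for Hspa5, but neither passed the adjustment (adjusted p = 0.998 for both, 0% called).

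Next, the levels were set against the two-cell burst score over all 31 embryos, with group means subtracted. Of the 8 heat shock genes tested, 2 rose with the score by Spearman's rho and 1 fell (adjusted p under 0.1 over 8571 genes), whereas 13.2% of all genes rose and 11% fell. Hspa1a rose (rho = 0.55, permutation p = 0.00149, adjusted p = 0.0206; r = 0.73, permutation p = 4e-05, adjusted p = 0.000897). Hsp90aa1 rose (rho = 0.44, adjusted p = 0.0673) with r = 0.35 (adjusted p = 0.116), and Hsf1 fell (rho = -0.44, adjusted p = 0.0732; r = -0.46, adjusted p = 0.029). Hspa1b, below the filter, had rho = 0.53 (unadjusted permutation p = 0.00226) and r = 0.54.

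Hspa1a kept its relation to the score without the 2 embryos farthest from the median score, which were control replicate 4 and SER replicate 15. In the other 29 its rho was 0.48 (adjusted p = 0.0862) and its r 0.46 (adjusted p = 0.0746), beside 6.21% of all genes that rose and 6.01% that fell. By rho, Hspa1a was then the 1 heat shock gene called, whereas by r Hsf1 was called too (r = -0.48, adjusted p = 0.0567). With every library thinned to 532945 counts Hspa1a was again the 1 called by rho (rho = 0.45, adjusted p = 0.0762), beside 9.7% of genes that rose and 7.89% that fell. By r, Hsf1 (-0.45, adjusted p = 0.0388), Hsp90aa1 (0.39, adjusted p = 0.0784), Hspa8, Hspa5 and Hspa4 were called there as well. The shares of all genes are by rho, here and below. None was computed for r, so calls by r cannot be set beside the rest of the genes. SER replicate 11, which had no Hspa1a or Hspa1b count, had a score of 5.01, rank 14 from the lowest of 31. Hsp90aa1 had rho = 0.40 (adjusted p = 0.164) and Hsf1 rho = -0.39 (adjusted p = 0.174) in these embryos. Hspa1b had rho = 0.49 and r = 0.53 there, and the sum of both copies rho = 0.55.

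For Hspa8, Hspa5 and Hspa4 the relation rested on the embryos that stood apart. Hspa8 had r = 0.70 over 31 embryos (adjusted p = 0.00175) and 0.29 over 29, Hspa5 had r = 0.65 (adjusted p = 0.0101) and then -0.14, and Hspa4 r = 0.50 (adjusted p = 0.0266) and then -0.10. Their rho over 31 embryos, 0.37, 0.12 and 0.19, did not pass the adjustment. Hsp90ab1 (rho = 0.23) and Hspa2 (rho = 0.13) did not pass it either.

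**Figure D4:**
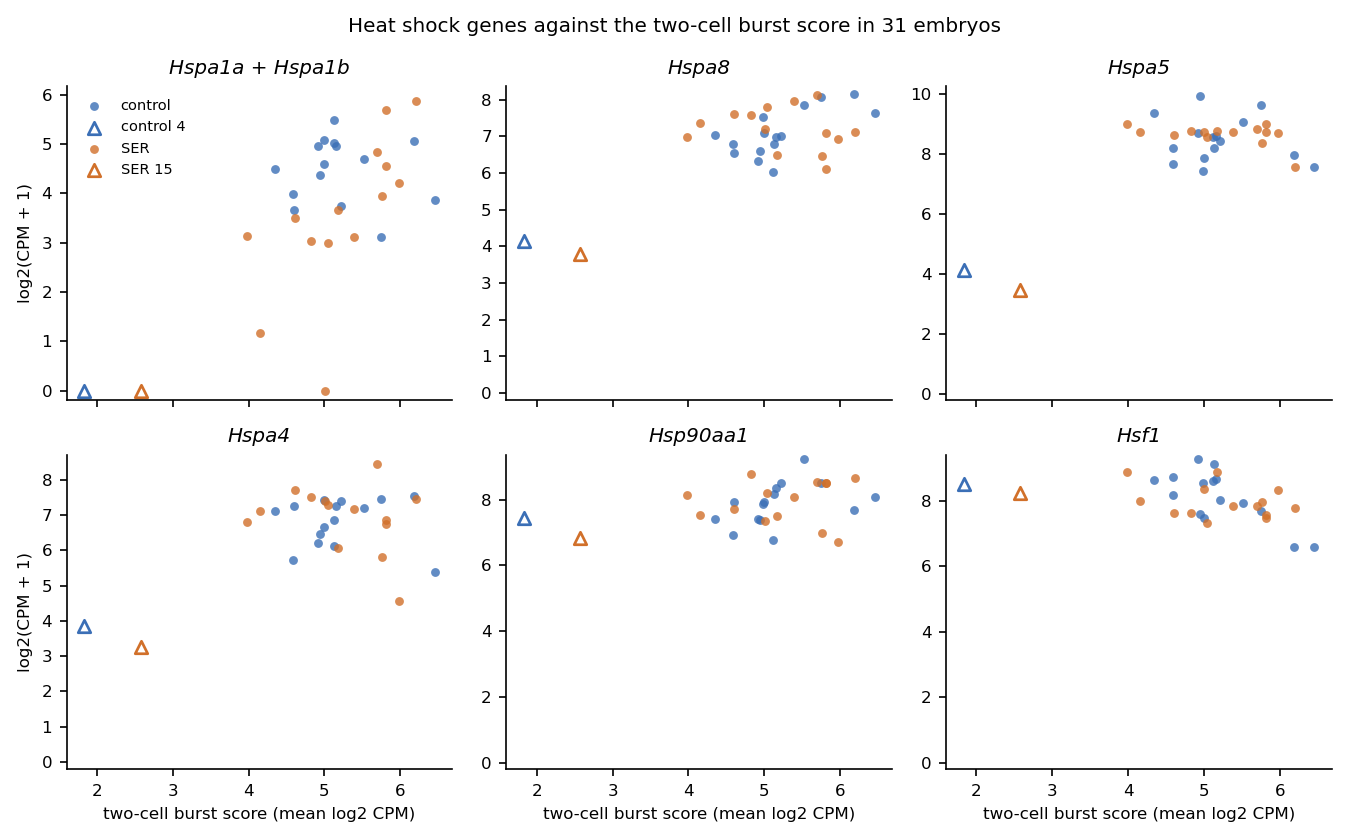
Each panel sets log2(CPM + 1) of a heat shock gene, or of Hspa1a and Hspa1b summed, on the y axis against the two-cell burst score on the x axis, with 1 point per embryo and triangles for control replicate 4 and SER replicate 15. In the Hspa1a and Hspa1b panel the other 29 points also rise (rho = 0.55), whereas for Hspa5 they are level (r = -0.14) and the 2 triangles lie far below.

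Against the maternal score, 2 of the 8 tested genes fell by rho and none rose, beside 19.7% of all genes that fell and 16.6% that rose. Hspa4 had rho = -0.50 (adjusted p = 0.0254) and r = -0.68 (adjusted p = 0.000767), and Hspa8 rho = -0.42 (adjusted p = 0.0658) and r = -0.63 (adjusted p = 0.00177). Over the 29 embryos rho was -0.37 for Hspa4 (adjusted p = 0.164) and -0.33 for Hspa8 (adjusted p = 0.229), and neither passed. By r, Hspa5 fell as well over 31 embryos (-0.62, adjusted p = 0.00396; -0.07 over 29), and over 29 Hspa2 rose (0.44, adjusted p = 0.0703). No share of all genes was computed for r. Hspa1a had rho = 0.14 over 31 and 0.39 over 29 embryos (adjusted p = 0.134). For Hsf1 rho was 0.20 over 31 (adjusted p = 0.428) and 0.08 over 29 embryos (adjusted p = 0.824).

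The heat shock genes fell into a group that varied together and others that did not. Of the 28 pairs of tested genes, 9 were correlated by rho (31 embryos, group means subtracted). A pair has an adjusted p for each of its genes, over the 8570 others, and the one for the gene named first here was held against 0.1. The 6 pairs among Hspa4, Hspa8, Hsp90aa1 and Hsp90ab1 were all positive, and the 3 others were negative and held Hsf1. With the adjusted p of the other gene, Hspa8 with Hsp90ab1 (0.0848 against 0.11) and Hsp90aa1 with Hsf1 (0.0973 against 0.105) were not called, and 7 were. The share of all genes that rose with a gene was 25% for Hspa4, 24.8% for Hspa8, 22.8% for Hsp90aa1, 18.7% for Hsp90ab1 and 20.2% for Hsf1, so that a correlation with any of these was common in these embryos. With falls counted too, 4031 of 8570 genes were called with Hspa4, 4252 with Hspa8, 3724 with Hsp90aa1, 3060 with Hsp90ab1 and 3374 with Hsf1. Negative calls were therefore common as well.

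Within that group the cytosolic Hsp90 genes were the closest pair (rho = 0.81, adjusted p = 0.000327; r = 0.84, adjusted p = 0.000516), and in the other 29 embryos rho was 0.85. Hspa4 and Hspa8 followed with rho = 0.66 (adjusted p = 0.00279) and r = 0.77 (adjusted p = 0.00019), and rho = 0.59 in 29 embryos. Hspa4 rose with Hsp90aa1 (rho = 0.57, adjusted p = 0.0069; 0.54 in 29 embryos), and Hspa8 with Hsp90aa1 (rho = 0.52, adjusted p = 0.0135; 0.47 in 29 embryos). The weakest were Hspa4 with Hsp90ab1 (rho = 0.42, adjusted p = 0.0545) and Hspa8 with Hsp90ab1 (rho = 0.37, adjusted p = 0.0848), the latter with r = 0.30 (adjusted p = 0.157).

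Hsf1 was negatively correlated with Hspa8, Hspa4 and Hsp90aa1, as many genes of the table were. Its rho with Hspa8 was -0.56 (adjusted p = 0.00702; r = -0.50, adjusted p = 0.0122) and -0.54 in the other 29 embryos (adjusted p = 0.0144). Its rho was -0.38 with Hspa4 (adjusted p = 0.0798) and -0.37 with Hsp90aa1 (adjusted p = 0.0973), and these were not called in 29 embryos (-0.30 and -0.36).

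By rho, Hspa1a followed neither course. Hspa1b, below the filter, had rho = 0.42 with Hsp90aa1 over 31 embryos (adjusted p = 0.393, for Hspa1b) and 0.40 over 29 (adjusted p = 0.730). With thinned libraries this rho was 0.51 (adjusted p = 0.095), where 426 of 8571 genes were called with Hspa1b. In none of these settings was Hspa1b called with Hspa4, Hspa8 or Hsp90ab1. Hspa1a and Hspa1b rose together (rho = 0.70 over 31 and 0.66 over 29 embryos, r = 0.67 and 0.66), a pair that shares most of its read windows and has low counts. In the 29 embryos 7 of the 28 pairs of tested genes were called, the same 6 positive pairs and Hspa8 with Hsf1. With the adjusted p of the other gene, Hspa2 was called with Hsf1 (rho = 0.51, adjusted p = 0.0288) and with Hspa8 (rho = -0.42, adjusted p = 0.0725) as well. The share of all genes that rose was 14.1% for Hspa4, 19.3% for Hspa8, 19.1% for Hsp90aa1, 20.6% for Hsp90ab1, 17.8% for Hsf1, 0.0583% for Hspa2 and 0% for Hspa1a and Hspa5. With falls counted too, 3430 of 8570 genes were called with Hspa8 and 2884 with Hsf1 in the 29 embryos. By rho, none of the pairs of Hspa1a, Hspa2 or Hspa5 with another tested heat shock gene was called over 31 embryos. By r, Hspa5 passed with Hspa8 (0.70, adjusted p = 0.0149), Hspa4 (0.67, adjusted p = 0.0149), Hspa1a (0.52, adjusted p = 0.0304) and Hspa2 (0.46, adjusted p = 0.0488), each adjusted for Hspa5, and Hspa4 and Hspa8, each adjusted for itself, passed with Hspa1a (0.41 and 0.39). In the 29 embryos these r were 0.04, 0.12, -0.15, 0.23, -0.06 and -0.19, so they rested on control replicate 4 and SER replicate 15. By rho, 0% of all genes rose with Hspa1a, 0% with Hspa5 and 0.0117% with Hspa2 past the adjustment. The share by r was not computed.

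**Figure D5:**
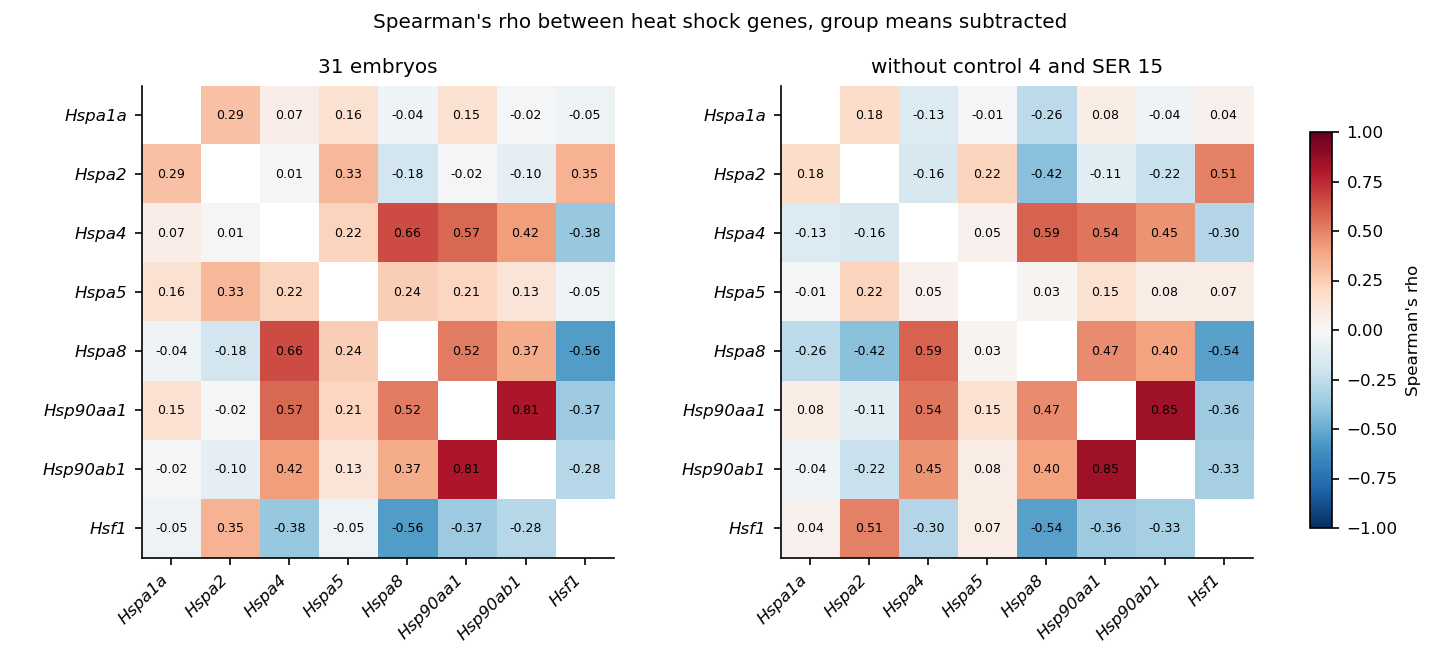
Squares give Spearman's rho of log2 CPM between each pair of the 8 tested heat shock genes, with group means subtracted, for 31 embryos on the left and for the 29 without control replicate 4 and SER replicate 15 on the right. Hsp90aa1 and Hsp90ab1 form the strongest pair (0.81 and 0.85), Hspa4 and Hspa8 follow (0.66 and 0.59), and Hsf1 is negative with Hspa8 (-0.56 and -0.54).

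The genes whose pattern was most like each heat shock gene were taken as the 3 with the highest rho over 31 embryos. For Hspa8 they were Psat1, an enzyme of serine synthesis (rho = 0.90), Nfyb, a subunit of the CCAAT-binding factor NF-Y (0.87), and the ribosomal protein gene Rpl13 (0.87). For Hsp90aa1 they were Sgo2a, a protector of centromeric cohesion (0.89), the tubulin gene Tubb4b (0.88) and Sertad1 (0.87). Hsp90ab1 was most like Rn45s, the ribosomal RNA precursor (0.87), Cby1 (0.81) and the cohesin acetyltransferase gene Esco2 (0.80). Hspa4 was most like Appbp2 (0.83), Rilpl2 (0.83) and Commd5 (0.82).

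For Hsf1 the most alike were AU040320 (rho = 0.88), Zbed3, which belongs to the subcortical maternal complex of the oocyte (0.85), and Foxo3, a transcription factor of the oocyte (0.82). Hsf1 itself was not called with the maternal score (rho = 0.20, adjusted p = 0.428). Each of the 15 named for Hspa8, Hsp90aa1, Hsp90ab1, Hspa4 and Hsf1 passed the adjustment over all genes, with adjusted p of 0.00103 or less. For Hspa5 the values were lower, with Gabbr1 (0.64), Derl1, which acts in the disposal of proteins from the endoplasmic reticulum (0.63), and Tuba1a (0.63), at an adjusted p of 0.514. Hspa2 was most like Srrt (0.71, adjusted p = 0.0857), Kdm4b (0.67) and M6pr (0.64). Hspa1a was most like M6pr (0.65), Pygm (0.60) and Dhcr7 (0.60), at an adjusted p of 0.577.

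Without control replicate 4 and SER replicate 15 some of these lists were replaced. None of the 3 stayed for Hspa5, whose place was taken by Dnajc3, a co-chaperone of the endoplasmic reticulum (0.63), Nol10 (0.62) and Klhl20 (0.59), or for Hsp90ab1, then most like Tpr (0.91), Nol11 (0.91) and Pa2g4 (0.91). For Hspa1a 1 stayed (M6pr), beside Mtmr4 (0.68) and Lars2 (0.63). For Hspa8, Hspa4 and Hsf1 2 stayed, and for Hsp90aa1 (Sgo2a) and Hspa2 (Srrt) 1.

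The wider chaperone network was read from lists of its other members. In no list was a gene called between SER and control embryos. Of the remaining Hsp70 proteins 6 of 9 were tested, 3 higher and 3 lower, with a median log2 fold change of 0.05. Hsph1, an Hsp110 gene, had the lowest p of them, with 0.61 ± 0.33 (adjusted p = 0.869 by edgeR), and the endoplasmic reticulum gene Hyou1 had 0.39 ± 0.28. Of the J-domain co-chaperones, which stimulate the ATPase of Hsp70, 26 of 32 were tested (16 higher, 10 lower, median 0.05), and Dnajb11 had 0.70 ± 0.28 (adjusted p = 0.733 by edgeR) and Dnajc5 0.41 ± 0.21.

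Factors that exchange the nucleotide of Hsp70 or hand on its clients gave 6 higher and 3 lower of 9 tested (median 0.11), and Hspbp1 and Bag3 had no count in either of the embryos that stood apart. All 24 Hsp90 proteins and co-chaperones were tested, 10 higher and 14 lower (median -0.07). Ptges3, the p23 co-chaperone, had -0.42 ± 0.19 (adjusted p = 0.812 by edgeR), and Ahsa1, an activator of the Hsp90 ATPase, -0.30 ± 0.18. The chaperonin TRiC and prefoldin gave 7 higher and 7 lower of 14 (median 0.02), with Pfdn5 at -0.40 and Vbp1 at -0.49.

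Of 10 small heat shock proteins, Hspb1 alone was tested (-0.22 ± 0.37), and 8 had a median of 0. The other heat shock factors and their regulators gave 3 lower of 3 tested. Hsbp1, whose protein binds heat shock factors, had -0.66 ± 0.30 (adjusted p = 0.809 by edgeR), and Hsf5, a member of the factor family, -0.66 ± 0.52. Hsbp1 and Hsf5 were at 250 and 133 CPM in control replicate 4 and at 166 and 123 CPM in SER replicate 15, beside medians of 84.1 and 18.1 CPM in the other 29.

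The endoplasmic reticulum list, where Hspa5 belongs by function, held 21 tested genes of 23 (13 higher, 8 lower, median 0.13). Of these, 3 had an unadjusted p under 0.05, namely Dnajb11, Creld2 with -0.52 ± 0.21 (adjusted p = 0.733 by edgeR) and Ddit3, named after its value was seen, with -0.80 ± 0.39 (adjusted p = 0.869 by edgeR). The summed level of the list was lowest in control replicate 4 (1070 CPM) and SER replicate 15 (1645 CPM) in their groups, whose medians were 2970 and 2931 CPM. Hspa5 was therefore not alone in being low there, and the low sum was not particular to this list. These embryos also had the lowest sums of their groups for TRiC and prefoldin (862 and 1036 CPM) and for the small heat shock proteins (12.1 and 4.28 CPM). In the other chaperone lists neither embryo had the lowest sum of its group.

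Last, known targets of Hsf1 outside the 10 genes were compared. Of 19 such genes 17 were tested, 7 higher and 10 lower in SER embryos (median -0.03). Hspe1, the mitochondrial co-chaperonin, had the lowest p with a log2 fold change of -1.35 ± 0.33 (adjusted p = 0.242 by edgeR), and its partner Hspd1 gave -0.57 ± 0.25 (adjusted p = 0.809). Neither was called.

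The same targets were set against the sum of Hspa1a and Hspa1b across embryos. The highest rho were those of Hspb1 (0.28), Dnaja1 (0.20) and Hsph1 (0.16), and the lowest was that of Chordc1 (-0.37). No target passed the adjustment over all genes by rho (adjusted p of 0.992 or more), and the 1 gene of all that did (0.0117%) was Hspa1a, a part of the sum. By Pearson's r, Bag3 (0.49) and Hspb1 (0.48) passed over 31 embryos (adjusted p = 0.0952 for both). They had 0.06 and 0.14 over the 29 without control replicate 4 and SER replicate 15, so these values rested on those embryos.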

How the data were processed

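Single 2-cell embryos were sequenced with Smart-seq3, in which 5′ reads carry a molecular identifier and internal reads do not. STAR was the aligner used by the authors for either kind of read. Uniquely mapped 5′ reads were kept, duplicates were removed by identifier or by Picard, and featureCounts gave 1 count per gene from the merged alignments. The deposited counts are whole numbers without normalization or batch correction, and mm10 is named in the submitters' processing notes. Versions, annotation and strand setting are not given in the sources used here. The study corrected for batches before its own test, but the labels do not name an embryo's batch, so no batch term was fitted and no within-batch value could be had.

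From the counts, genes were tested with edgeR 4.0.16 (R 4.3.3; TMM, default filter by group with a minimum count of 10 and total of 15, quasi-likelihood test), p-values were adjusted after Benjamini and Hochberg across the whole set of tested genes, and calls were made at an adjusted p under 0.1. Alternatives were DESeq2 1.42.0, limma voom 3.58.1, sva 3.50.0 surrogate variables, other filters and scalings, library size as a covariate, a replicate block, thinning to 532945 counts and leaving embryos out. CPM are counts divided by the library total and multiplied by 1000000. Correlations, scores and spread used log2 CPM (TMM, prior count 2) with 2-sided permutation tests of 100000 resamples. Exon lengths, positions and shared read windows (45 and 30 bases, the read lengths) came from GENCODE vM21 on GRCm38, the same assembly as mm10, and promoters from RefSeq. The fits and the permutation test were tested on simulated data.

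The heat shock genes and all gene lists were chosen with earlier results of these data known. Genes named besides the 10 were, of each chaperone list, the 2 with the smallest p, of each tested heat shock gene the 3 with the highest rho, and of the Hsf1 targets the 3 highest and 1 lowest by rho. Embryos left out together were chosen after the data were seen. Depth limited Hspa1b and Hsf2: with 0 counts, 3 counts of the total were taken as the upper limit.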

Additional observations from a re-analysis of the deposited data

How the results depend on the processing

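The count of 0 heat shock genes called between SER and control embryos was the same under 10 of 11 alternative settings and with each embryo left out, and 2 with limma voom and quality weights, and the cause was not tested. Directions of small fold changes were not stable. The log2 fold change turned to 0.0039 for Hspa5 without a filter, to -0.00052 for Hsp90aa1 with DESeq2's size factors and to -0.0013 with DESeq2, and to 0.23 for Hspa5 with limma voom. With library size as a covariate it turned to 0.29 for Hspa2, 0.044 for Hspa5 and 0.45 for Hsf2, and with 2 surrogate variables to -0.13 for Hspa4 and -0.039 for Hsp90aa1. Leaving out each embryo in turn gave ranges of -0.32 to 0.13 for Hspa2, -0.0065 to 0.29 for Hspa4, -0.11 to 0.15 for Hspa5, -0.092 to 0.15 for Hspa8, -0.071 to 0.13 for Hsp90aa1 and -0.54 to 0.21 for Hsf2. The labels do not pair same-numbered embryos. Over 15 such pairs the correlation of their deviations ran from -0.37 to 0.49 (median 0.11). It was over 0.1 in 8 pairs, and 4 correlated best with their own number. Whether same-numbered embryos share a batch was not tested. A replicate block gave -0.0072 for Hspa4, 0.036 for Hspa5 and -0.080 for Hsp90aa1, with 0 calls.

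On TMM-scaled totals the mean of Hspa5 was 2.91 CPM lower in SER, written -2.91 as a difference, and on unscaled totals the difference in spread of Hspa8 was 0.015. By rho, the number of heat shock genes that correlated with the two-cell burst score, 3 over all embryos, was 1 without control replicate 4 and SER replicate 15 and 1 with libraries thinned, and that for the maternal score, 2 over all embryos, was 0 without them. Without these embryos rho with the burst score turned to -0.091 for Hspa5 and -0.023 for Hspa2, and with the maternal score to 0.0030 for Hspa5. With thinning, rho turned to 0.11 for Hsf2 with the burst score and to -0.0066 for Hspa1b with the maternal score. Of the 28 pairs, 7 to 9 were correlated by rho. Hspa1b and Hsf2 were too low for the filter.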
